A study of Mus musculus with 16 samples.

Results

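Serpins are a family of serine protease inhibitors and related proteins, and the liver secretes many of them into plasma. The members described here are all non-control probes of the microarray whose gene name begins with Serpin, which were 87 of 56605 probes and 64 of 37074 gene names. They were read in liver RNA of 16 male C57BL/6 mice, 1 mouse per array. All mice were conventional, had no antibiotic, ate normal chow (NC) from 6 weeks of age over 4 weeks and are labelled as 10 weeks old. Livers were taken after a 6-h fast from mice housed in groups under an inverted light cycle. The Conv + PBS group (6 mice, here PBS mice) received reduced PBS, the vehicle, although the sample labels call these mice not transplanted. The Conv + LM group (5 mice, here LM recipients) received caecal content of lean donors fed NC, and the Conv + OM(HFD) group (5 mice, here OM(HFD) recipients) received caecal content of donors made obese by a high-fat diet (HFD). The mice carry the number of their sample label, namely 1 to 6, 13 to 17, and 25, 26, 28, 29 and 30. Caecal content was given by gavage to mice not cleared of their own microbiota by antibiotics, and each donor group was used as a pool. The names of the scans place the arrays on 2 slides of 8 arrays. Slides 1 and 2 held 3 and 3 PBS mice, 2 and 3 LM recipients, and 3 and 2 OM(HFD) recipients. A value within a slide thus rests on 2 or 3 mice per group. The labels do not say how cages fell across the arrays, and the p-values measure the spread between these mice only.

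A serpin inhibits by bait. The target protease cuts an exposed loop of the serpin, and the serpin then changes shape and traps the protease in a covalent complex that is cleared from plasma. The letter in a gene symbol names the clade. Clade A holds the antitrypsin- and antichymotrypsin-like plasma inhibitors together with hormone carriers, and clade B the mostly intracellular inhibitors found in leukocytes and epithelia. Clades C and D hold antithrombin and heparin cofactor II, which inhibit thrombin, clade E protease nexin 1 and its relatives, clade F α2-antiplasmin and PEDF, clade G the C1 inhibitor of complement, clade H the collagen chaperone HSP47, and clade I neuroserpin and its relative. Human α1-antitrypsin comes from a single gene, while the mouse has a row of copies (Serpina1a and onwards), and the same holds for α1-antichymotrypsin and the mouse Serpina3 genes.

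Values are log2 of the background-subtracted spot intensity minus the 75th percentile of the array, so that 0 is the brightness of a probe above 75% of the probes of that array. That percentile lay between 152.5 and 219.6 intensity units over the 16 arrays, and 49.75 to 58.33% of probes were well above background. A probe counted as measured when the scanner software, Feature Extraction, set it clear of background on 5 arrays or more, and the brightest such probe stood for its gene. By this measure 38 of the 64 Serpin genes were tested, 35 of them above background on all 16 arrays. Another 14 genes had a probe above background on 1 to 4 arrays, and 12 genes on no array. All 6 hepatocyte markers examined (Alb, Apoa1, Ttr, Trf, Cps1 and Apob) were above background on every array. Mice 1 and 25 stood apart in the neutrophil list (6 of 8 markers tested, mean log2 value per mouse), at 0.73 and 0.86, while the other 14 mice lay between −3.60 and −2.12. Mouse 1 also had the highest mean of the 6 Kupffer cell markers, 3.70, followed by 2.48 in mouse 25 and 0.75 to 1.82 in the others. Results that rest on these mice are given with and without them.

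Detection differed by clade. Of the 26 clade A genes, 24 were tested, against 6 of the 27 clade B genes. The single genes of clades C, D, G and H and both genes of clade F were tested, as were 2 of 3 in clade E and 0 of 2 in clade I. Of the 64 genes, 25 lie on chromosome 12, 15 on chromosome 13 and 14 on chromosome 1 by the mm9 positions of their probes, and 23, 5 and 3 of these were tested. The brightest probe of 11 genes lay in the top 1% of all probes. These were Serpina1a to Serpina1e (antitrypsins), Serpina3k and Serpina3m (antichymotrypsin-like), Serpinc1 (antithrombin), Serpinf1 (PEDF), Serpinf2 (α2-antiplasmin) and Serping1 (C1 inhibitor), with mean log2 intensities from 7.84 for Serpinf2 to 10.97 for Serpina1b. A further 6 genes lay between the 95th and 99th percentiles, among them Serpinb8, Serpind1 (heparin cofactor II), Serpina11 and Serpina6, which encodes the corticosteroid-binding globulin. The next band, from the 80th to the 95th percentile, held 8 genes and included Serpina3n, Serpina10 (inhibitor of factor Xa with protein Z), Serpina4-ps1 (the mouse pseudogene of the kallistatin gene), Serpine2 (protease nexin 1), Serpinb6a, Serpinb6c and Serpina3g. Between the 50th and the 80th percentile lay 12 genes, among them Serpinh1 (HSP47), Serpina7 (thyroxine-binding globulin), Serpinb9 (a granzyme B inhibitor), Serpinb1a (a neutrophil elastase inhibitor) and Serpina12 (vaspin). Below the 50th percentile lay 27 genes, of which 21 were in clade B.

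**Figure D1:**
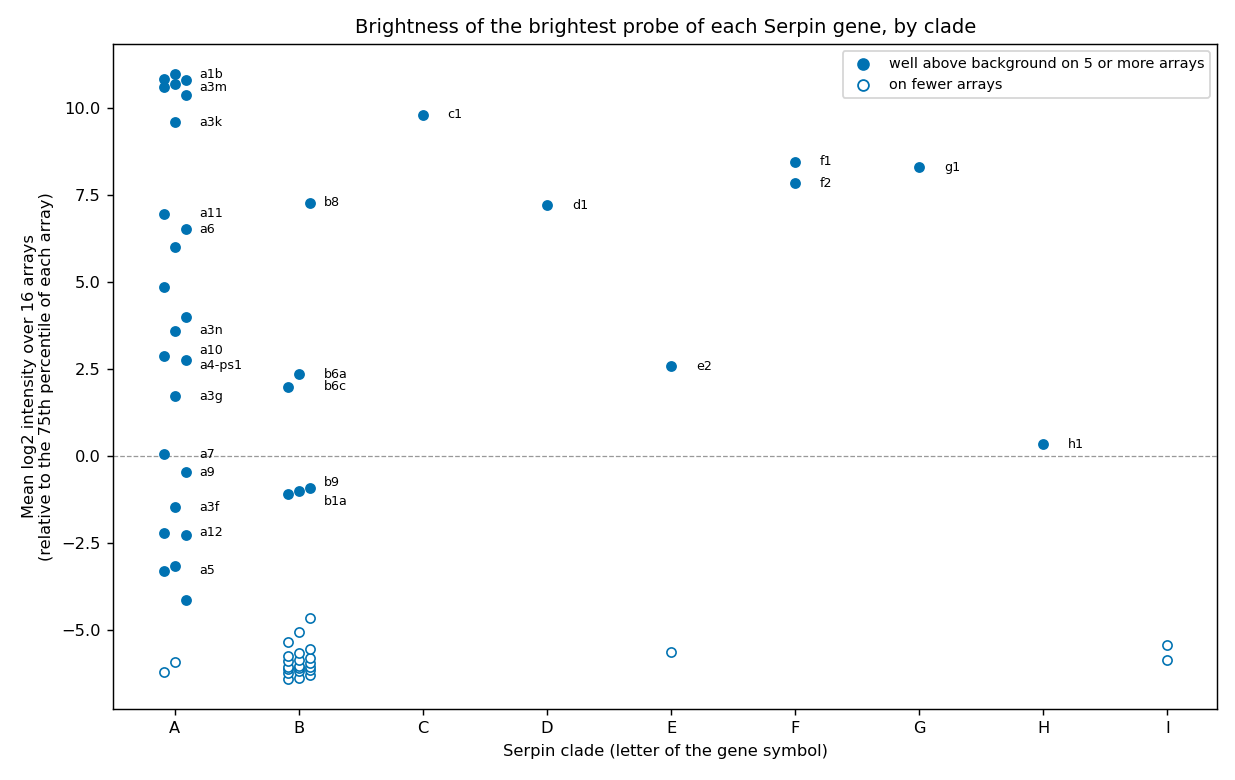
Mean log2 intensity over 16 arrays of the brightest probe of each of 63 Serpin genes (y axis, relative to the 75th percentile of each array, marked by the dashed line at 0), by clade (x axis), with filled points for the 37 tested genes among them. Clade A reaches from the brightest to dim probes, and 21 of the 27 clade B genes are open points.

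These bands describe probes and not amounts of transcript, since brightness also depends on the probe. The 18 genes with several probes show how much, with a median gap of 1.76 on the log2 scale between the brightest and the dimmest probe of the same gene. For Serpinc1 the probes stood at 9.81 and −1.97 and for Serpinb8 at 7.28 and −4.43. No Serpin spot was flagged as an outlier, and no spot of any gene was saturated.

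The 5 antitrypsin genes lie next to each other on chromosome 12, and a stretch of their promoters reads alike. In the RefSeq promoter table (GRCm38.p6, 250 bases before to 50 after each start), 53 of the 64 Serpin names and 28 of the 38 tested genes had a promoter. The letters GTTAAT, which serve here to mark what the 5 promoters have in common, were found on either strand in 12 of 63 Serpin promoters (of 54 genes, 1 of which the array does not name). These include all 5 of Serpina1a to Serpina1e, so nothing is read from that count beside the 7.10% of the 32851 promoters of all genes. A window of 52 bases set around these letters is shown, with the letters in capitals, and how far the likeness runs beyond it was not examined. All 5 stretches lie on the minus strand, wholly before the start.
Serpina1a, chr12:103863629-103863680, motif 21 bases before the start: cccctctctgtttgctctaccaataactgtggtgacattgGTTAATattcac
Serpina1b, chr12:103738204-103738255, motif 26 bases before the start: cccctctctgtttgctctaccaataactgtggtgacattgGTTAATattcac
Serpina1c, chr12:103904966-103905017, motif 27 bases before the start: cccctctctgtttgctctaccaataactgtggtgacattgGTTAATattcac
Serpina1d, chr12:103773638-103773689, motif 16 bases before the start: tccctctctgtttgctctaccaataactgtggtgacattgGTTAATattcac
Serpina1e, chr12:103956964-103957015, motif 78 bases before the start: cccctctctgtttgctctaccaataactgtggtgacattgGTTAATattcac
The stretches of Serpina1b, Serpina1c and Serpina1e were identical to that of Serpina1a at all 52 positions, and that of Serpina1d at 51. A match of letters is a description and shows no binding.

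The probes of these copies are also alike, which limits how far the array can tell them apart. The probes of Serpina1a and Serpina1c share a run of 47 of their 60 bases. A run of 29 bases, in capitals in the following 30-base stretches of the probes, is common to Serpina1a, Serpina1c and Serpina1e.
Serpina1a, probe bases 7 to 36: GTCATCCTTCCTTCTGAATTGGGTTCCTTc
Serpina1c, probe bases 16 to 45: GTCATCCTTCCTTCTGAATTGGGTTCCTTc
Serpina1e, probe bases 17 to 46: GTCATCCTTCCTTCTGAATTGGGTTCCTTt
The probes of Serpinb6a and Serpinb6c, which inhibit proteases inside the cell, share 26 bases in the same way.
Serpinb6a, probe bases 1 to 30: AAGTGACCTTATCCATAAGTGCAATGgcaa
Serpinb6c, probe bases 17 to 46: ccAAGTGACCTTATCCATAAGTGCAATGac
How much of a signal came from a copy was not tested, and the Serpina1 genes and the pair Serpinb6a and Serpinb6c are therefore uncertain as separate measurements.

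To ask whether either microbiota transfer was accompanied by a difference in these genes, the 3 groups were compared in a single limma fit across all 20404 genes tested. No Serpin gene passed a Benjamini-Hochberg adjusted p of 0.05 over all genes in any comparison, by limma or by the methods' t-test, and the smallest adjusted p in limma were 1, 0.998 and 0.999. At an unadjusted limma p under 0.05 there was 1 Serpin gene between OM(HFD) and PBS mice (Serpina11), 1 between LM and PBS mice (Serpinb6c) and 0 between OM(HFD) and LM recipients. Over all genes the share at that p was 3.25%, 3.88% and 2.67%, so that 1 of 38, or 2.63%, is near the background. The test for any difference among the 3 groups (limma's moderated F, unadjusted p under 0.05) called 0 of the 38 against 2.88% of all genes. In none of the comparisons did the groups of any tested Serpin gene separate without overlap, which 0.230%, 0.279% and 0.436% of all genes did. Both comparisons with PBS share the same 6 control mice.

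Serpina11 is a clade A gene. Its probe lies at chr12:105218465-105218524 on the minus strand of mm9. In mice 1 to 6 (PBS) the log2 intensity was 6.74, 6.80, 6.85, 7.13, 6.68 and 6.87. In the LM recipients it was 6.79, 6.82, 6.92, 7.40 and 7.06, and in the OM(HFD) recipients 7.18, 6.96, 6.98, 7.20 and 7.10. All 5 OM(HFD) recipients lay above 5 of the 6 controls, and mouse 4 of the controls lay among them. The mean was 17.9% higher than in PBS mice (log2 fold change 0.24, SE 0.11, limma unadjusted p = 0.0492, adjusted p = 1, exact two-sided permutation p = 0.0260), with differences of 0.31 within slide 1 and 0.17 within slide 2. In LM recipients the log2 fold change against the same controls was 0.15 (SE 0.11, limma p = 0.193, exact permutation p = 0.260). The difference kept its sign under all alternatives run (0.19 to 0.29), and the limma p ranged from 0.0147 to 0.157. It was under 0.05 in 6 of the 16 fits that left out 1 mouse each.

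Serpinb6c, read at chr13:33971703-33971762 on the minus strand of mm9, is a clade B gene. Its log2 intensity was 2.64, 1.98, 2.08, 1.83, 2.19 and 2.08 in mice 1 to 6 (PBS). The LM recipients gave 1.76, 1.82, 1.90, 1.92 and 1.96, and the OM(HFD) recipients 2.05, 1.74, 2.0, 2.04 and 2.03. Mouse 1 was the highest of the 16 and mouse 4 of the controls lay inside the LM range. The mean of LM recipients was lower than that of PBS mice by a log2 fold change of −0.26 (SE 0.12, limma unadjusted p = 0.0446, adjusted p = 0.998, exact permutation p = 0.0455), or −0.29 and −0.26 within slides 1 and 2. Without mouse 1 it was −0.16 (limma p = 0.0924, exact permutation p = 0.0556), and the limma p was under 0.05 in 4 of the 16 fits that left out 1 mouse each. Against the same controls, OM(HFD) recipients differed by −0.16 (SE 0.12, limma p = 0.189, exact permutation p = 0.288).

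The abundant plasma inhibitors differed little between groups and their spread within groups was small. The means of the 5 antitrypsins were 3.92 to 8.12% higher in OM(HFD) recipients than in PBS mice (log2 fold changes 0.06 to 0.11, SE at most 0.10), and 0 of 5 had a limma p under 0.05. With quantile normalization 3 of these 5 differences were above 0 and 2 below. Against LM recipients all 5 were higher by 0.09 to 0.15, yet after quantile normalization 1 of 5 was, so this direction depended on the scaling. Serpinc1 differed from PBS by 0.03 (SE 0.08) in OM(HFD) and by −0.09 (SE 0.08) in LM recipients. For Serpind1 these differences were −0.00 and 0.05, for Serpinf2 −0.09 and 0.06, and for Serping1 0.10 and −0.03, with SE between 0.09 and 0.15. Serpina6, the carrier of corticosterone, stood at −0.15 and −0.18 (SE 0.11, limma p = 0.188 and 0.108, exact permutation p = 0.182 and 0.158).

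By clade, 18 of 24 clade A genes had a higher mean in OM(HFD) recipients than in PBS mice (median log2 fold change 0.07) and 12 of 24 did in LM recipients (0.01). For clade B these numbers were 1 of 6 (−0.15) and 2 of 6 (−0.10). All 6 hepatocyte markers were also higher in OM(HFD) recipients than in PBS mice (median 0.09), none at a limma p under 0.05. After quantile normalization the split of clade A in OM(HFD) recipients was 16 of 24 (median 0.03). In LM recipients it moved with the scaling, to 16 higher of 24 after quantile normalization or in the authors' processed values and 18 of 24 with array weights, whereas clade B gave 2 of 6 in each. Over all 20404 genes, 49.3% had a higher mean in OM(HFD) and 46.9% in LM recipients, each against PBS. In clade B Serpinb1a had the largest differences, at −0.40 in OM(HFD) and −0.48 in LM recipients (SE 0.26, limma p = 0.140 and 0.0830, exact permutation p = 0.173 and 0.147). Without mouse 1 these were −0.27 and −0.35 (exact permutation p = 0.325 and 0.262). In LM recipients against PBS mice all 6 tested neutrophil markers (median −0.76) and all 6 Kupffer cell markers (−0.56) had a lower mean, and without mouse 1 this was 2 of 6 (0.01) and 6 of 6 (−0.23). In OM(HFD) recipients against PBS mice 5 of the 6 neutrophil markers had a higher mean (0.18) and all 6 Kupffer cell markers a lower one (−0.15), and without mouse 1 the counts higher were 6 of 6 (0.94) and 5 of 6 (0.19). Without mouse 25 these counts were 1 of 6 (−0.45) and 0 of 6 (−0.36), and without both mice 4 of 6 (0.14) and 1 of 6 (−0.03). The part of these cells in the clade B values was not tested. In OM(HFD) recipients against PBS mice Serpine2 of clade E differed by −0.30 (SE 0.33) and Serpinh1 of clade H by −0.12 (SE 0.16). Serpine2 differed by −0.02 without mouse 25. Serpinh1 differed by −0.38 within slide 1 and 0.19 within slide 2, and by −0.01 without mouse 30.

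**Figure D2:**
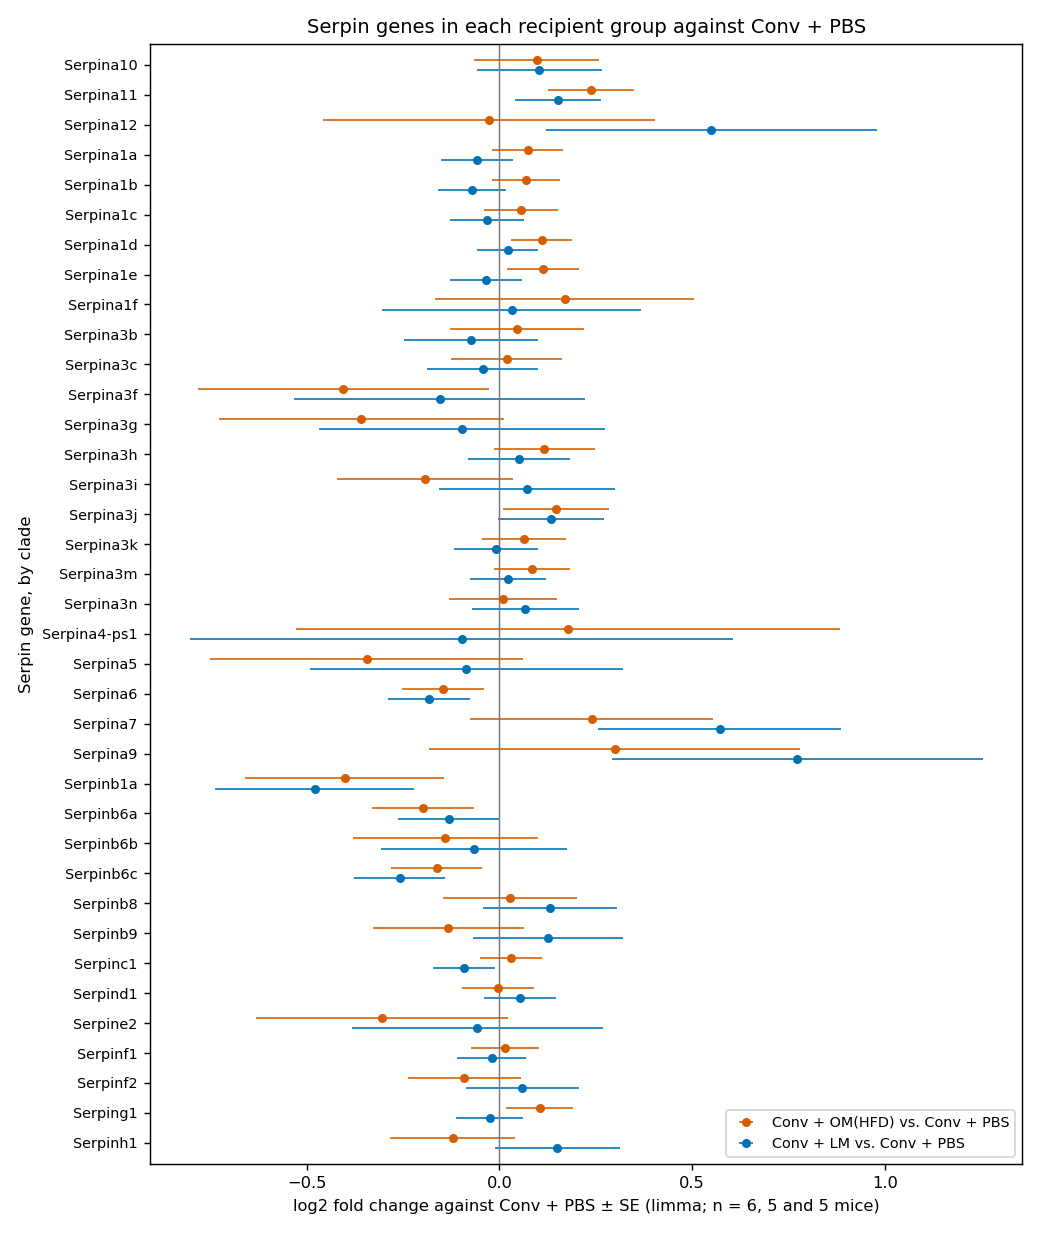
Log2 fold change ± SE (x axis, limma) of 37 tested Serpin genes (y axis, by clade) in OM(HFD) (5 mice, orange) and LM recipients (5 mice, blue), each against the same 6 PBS mice. Bars of the bright plasma inhibitors are short and near 0, and the bars of Serpina4-ps1, Serpina9 and Serpina12 are long.

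The members differed widely in their spread among mice. The within-group SD, the residual SD after the 3 group means, had a median of 0.24 over the 38 genes and 0.24 over all genes tested, and 7 of the 38 lay in the top 10% of all genes. Of the 11 genes in the brightest 1% of probes, 10 had an SD below the median of all genes, from the 5.45th percentile (Serpina1d, SD 0.11) upward, and the other was Serpinf2 at the 51.7th. The most variable member was Serpina4-ps1 (SD 1.26, 99.2nd percentile), and among the next most variable genes above background on all arrays were Serpina9 (0.86), Serpina12 (0.77), Serpina3f (0.67), Serpina3g (0.66), Serpine2 (0.58), Serpina7 (0.56), Serpinb1a (0.45) and Serpinb6b (0.42). Serpina5, the protein C inhibitor, and Serpina1f had an SD of 0.72 and 0.60, but were above background on 13 and 7 arrays only. Serpina4-ps1, Serpine2 and Serpina3g are the members of this set above the 80th percentile of brightness. The part of background in the spread of the dimmer probes was not tested.

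**Figure D3:**
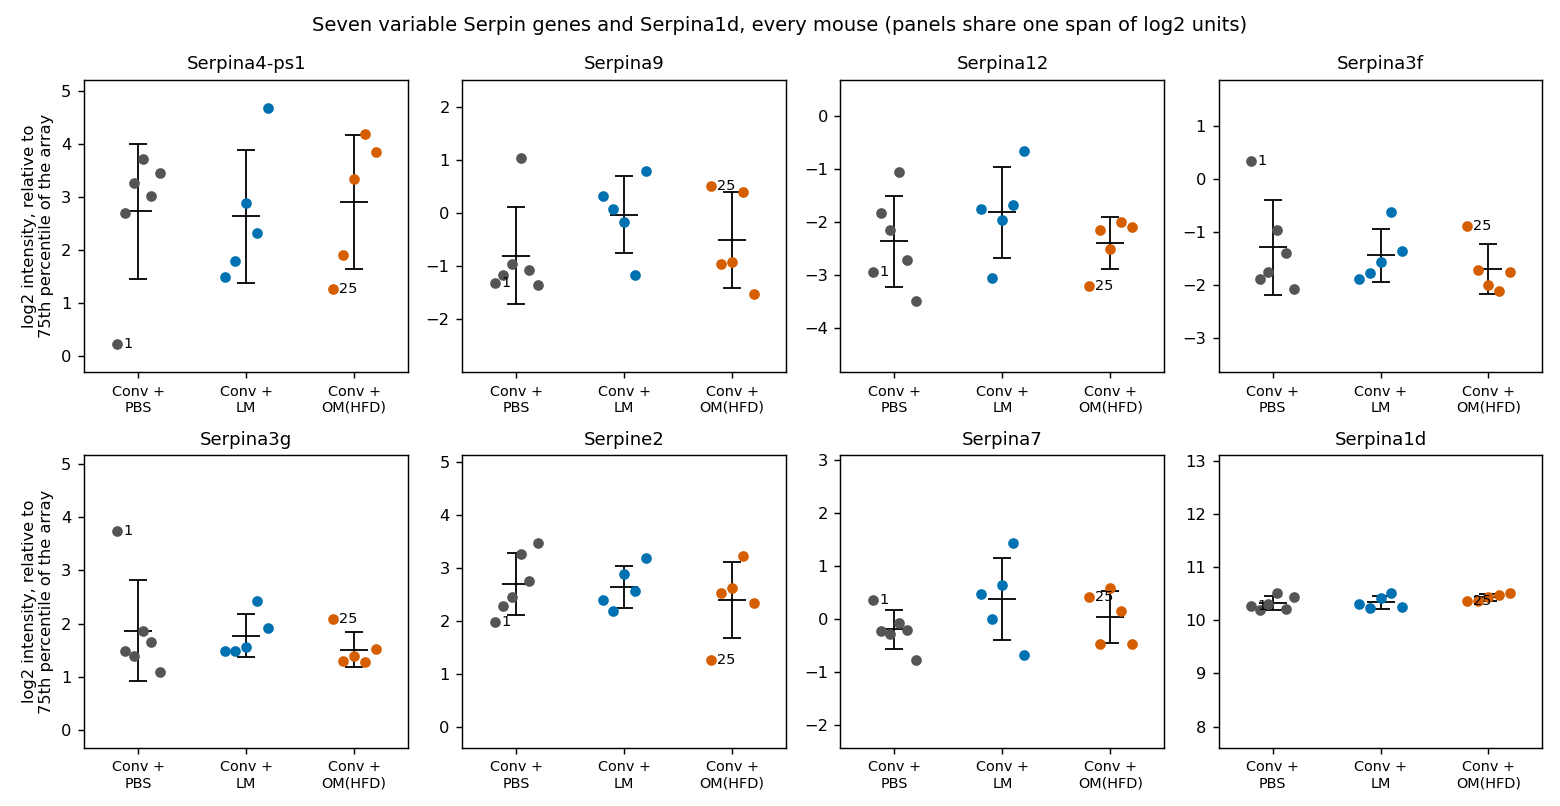
Log2 intensity of 7 variable Serpin genes and of Serpina1d in every mouse (points), by group (x axis), with the mean and SD as bars and mice 1 and 25 numbered. All panels span the same number of log2 units, in which Serpina1d forms a narrow band and Serpina4-ps1 spreads from 0.24 to 4.67.

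Serpina4-ps1 is read at chr12:105319448-105319507 on the plus strand of mm9. Its log2 intensity in mice 1 to 6 was 0.24, 2.70, 3.26, 3.72, 3.01 and 3.44. The LM recipients gave 1.49, 1.80, 2.89, 2.31 and 4.67, and the OM(HFD) recipients 1.27, 1.91, 3.34, 4.18 and 3.84. Low and high mice occurred in every group, so that the group means of 2.73 ± 1.27 (SD, n = 6), 2.63 ± 1.26 (SD, n = 5) and 2.91 ± 1.26 (SD, n = 5) differed by less than the spread between mice. At its brightest probe Serpine2 showed a like order, with 1.98, 2.28, 2.46, 3.25, 2.76 and 3.47 in mice 1 to 6, 2.39, 2.18, 2.89, 2.56 and 3.19 in the LM recipients, and 1.26, 2.52, 2.62, 3.23 and 2.34 in the OM(HFD) recipients. Its second probe, above background on 15 arrays, gave −3.48, −0.87, −1.20, −1.59, −1.26 and −1.50 in mice 1 to 6. On it the LM recipients gave −1.11, −2.03, −0.97, −2.02 and −2.42, and the OM(HFD) recipients −2.61, −1.67, −2.20, −2.06 and −2.67. Mouse 17 was thus the highest LM recipient at the first probe and the lowest at the second. Relations and pairs of Serpine2 use the first probe only.

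Serpina3g, also called Spi2A, inhibits cathepsins in leukocytes, and Serpina3f is its neighbour. Serpina3g was 3.74 in mouse 1 and 1.08 to 1.86 in the other PBS mice, 1.48 to 2.42 in the LM recipients, and 2.08 in mouse 25 and 1.27 to 1.51 in the other OM(HFD) recipients. At its brightest probe Serpina3f ran in parallel, with 0.34 in mouse 1 and between −2.11 and −0.63 in all others. Its second probe, also above background on all 16 arrays, gave −1.71 in mouse 1, −1.66 in mouse 16 and −1.42 in mouse 25, and −2.70 to −2.01 in the others. That probe had a within-group SD of 0.40, against 0.67 for the first, so mouse 1 stood apart at the first probe only. Relations and pairs of Serpina3f use the first probe.

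Serpina9, named centerin for its expression in germinal centre B cells, was −1.32, −1.17, −0.95, 1.05, −1.06 and −1.35 in mice 1 to 6. The LM recipients gave 0.32, 0.08, −0.17, −1.16 and 0.80, and the OM(HFD) recipients 0.51, −0.97, −0.92, 0.40 and −1.53. Every group held mice under 0 and mice over 0, so the groups overlapped. In mouse 28 its second probe gave 0.74 where the first gave −0.92, so the probes disagreed there. The log2 fold change in LM recipients against PBS mice was 0.77 (SE 0.48, limma p = 0.129, exact permutation p = 0.171), and 1.14 without mouse 4 (limma p = 0.0120, exact permutation p = 0.0238, neither of them adjusted). Over the fits without 1 mouse each it ran from 0.57 to 1.14, with a limma p under 0.05 in 2 of 16. Of 3 B cell markers, 2 were tested, and neither was above background on all arrays. Their mean ranged from −3.76 to −2.34 in PBS mice, −3.35 to −2.57 in LM recipients and −3.42 to −2.19 in OM(HFD) recipients, and their part in the Serpina9 values was not tested. Serpina12 encodes vaspin, known from adipose tissue, and ranged from −3.49 to −1.06 in PBS mice, from −3.05 to −0.66 in LM recipients and from −3.21 to −2.0 in OM(HFD) recipients. Of 3 adipocyte markers, 2 were tested, and their mean was 1.68 in mouse 15 and between −5.57 and −1.79 in the other mice, while Serpina12 in mouse 15 was −1.95, within the range of the other LM recipients. Serpina7, the thyroxine carrier on chromosome X, had a mean of −0.20 ± 0.37 (SD, n = 6) in PBS mice and 0.37 ± 0.78 (SD, n = 5) in LM recipients, with a log2 fold change of 0.57 (SE 0.32, limma p = 0.0898, exact permutation p = 0.149) that became 0.83 without mouse 17 (limma p = 0.0109, exact permutation p = 0.0190, neither of them adjusted) and 0.31 without mouse 16 (limma p = 0.297, exact permutation p = 0.333).

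Because several of these genes respond to inflammation or to the time of day in liver, the 5 most variable members above background on all arrays were set against the means of 3 gene lists, 4 of these members being described here, across the 16 mice, as deviations from group means (15 relations, with p from 100000 permutations within groups). Values of a mouse come from the same array and share its scaling. The clock list (Arntl, Clock, Nfil3 and Cry1, which in mouse liver peak from late night to early morning, while Npas2 was not tested) averaged 0.04, −0.10, 0.57, 0.77, 1.02 and 1.56 in mice 1, 2, 3, 4, 5 and 6, then −0.08, 0.22, 0.70, 0.74 and 1.40 in mice 13, 14, 15, 16 and 17, and 0.06, 0.54, 0.73, 1.09 and 1.74 in mice 25, 26, 28, 29 and 30. Within the groups the lowest values were those of mice 2, 13 and 25 and the highest those of mice 6, 17 and 30. The labels and methods do not say in which order or at what hour each mouse was killed. Serpina4-ps1 was higher where the clock list was higher (Pearson's r = 0.779, permutation p = 0.00097, adjusted 0.00728, and Spearman's rho = 0.782, permutation p = 0.00104, adjusted 0.0156). Within slides 1 and 2 r was 0.806 and 0.858, without the 2 mice farthest from the median of the list it was 0.820, and without mice 1 and 25 it was 0.731 (permutation p = 0.00275, adjusted 0.0384). Without 1 mouse at a time r lay between 0.727 and 0.837. The relation missed an adjusted p of 0.05 without mouse 25 alone (r = 0.737, permutation p = 0.00397, adjusted 0.0595). Spearman's rho of 0.714 without these mice had an adjusted permutation p of 0.115. These p-values take the mice of a group as exchangeable, which an effect of the order of handling would break, and its part in the relation was not tested.

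The acute phase list (18 genes such as Saa1, Orm1 and Hp, none of them a Serpin gene) was highest in mouse 25, at 6.71 against 4.49 to 5.65 in the others. Serpina3f had r = 0.650 with this list (permutation p = 0.00659, adjusted 0.0247) and rho = 0.579 (permutation p = 0.0161, adjusted 0.0805), which fell to r = 0.218 without mice 1 and 25 and thus rests on them. With the neutrophil list these 2 mice form a cluster of their own, and no r over all mice is given. Among the other 14 mice r with that list was 0.258 for Serpina3f, and 0 of the 5 relations with it had an adjusted p under 0.05. Serpina9 and Serpina12 had no relation at an adjusted p under 0.05 with any of the lists. The part of the neutrophils of mouse 1 and mouse 25 in the values of Serpina3f and Serpina3g was not tested. In bulk liver, fewer cells of a type and less RNA per cell cannot be told apart.

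**Figure D4:**
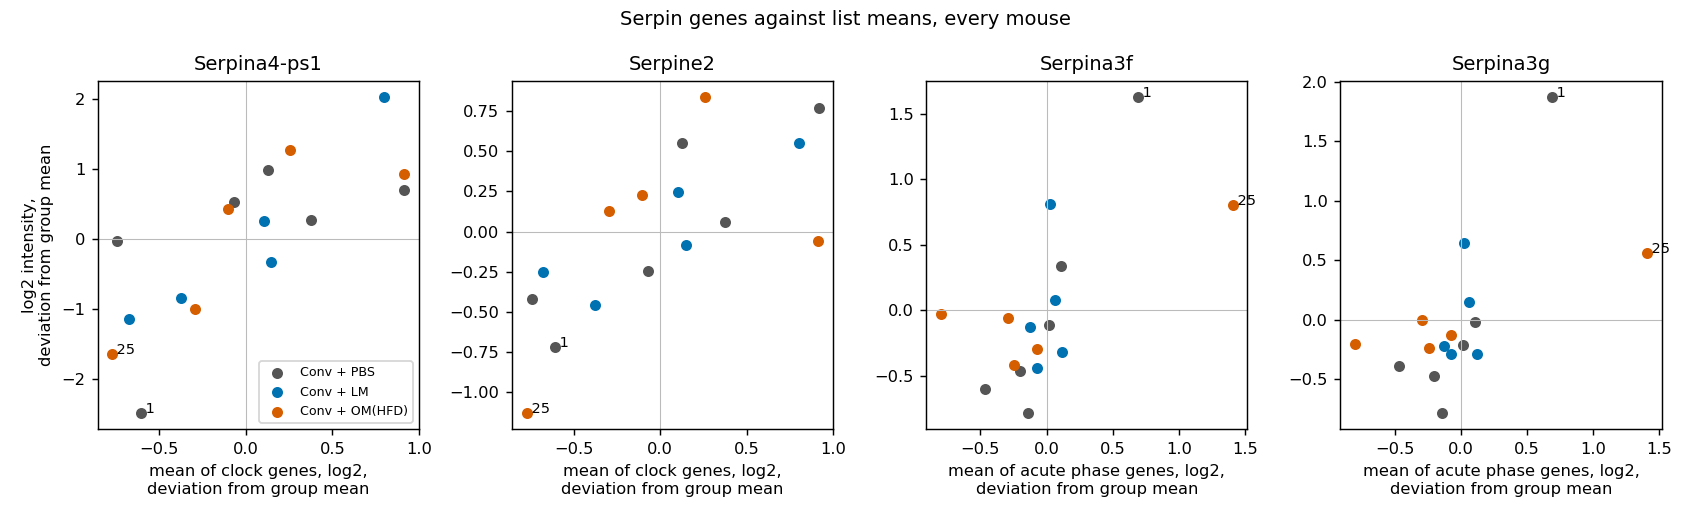
Log2 intensity of Serpina4-ps1 and Serpine2 against the mean of 4 clock genes, and of Serpina3f and Serpina3g against the mean of 18 acute phase genes, in 16 mice (points, coloured by group), both axes as deviations from the group mean. The first pair of panels shows points along a diagonal, and in the others mice 1 and 25, numbered, lie apart from the rest.

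Serpina3f and Serpina3g also share letters before their starts. TTCNNNGAA, the site of STAT factors, was found on either strand in 8.30% of all promoters and in 11 of the 63 Serpin promoters, those of Serpina3f, Serpina3g and Serpina11 among them. It is shown in capitals on the plus strand, because these are the members with the closest parallel across mice.
Serpina3f, chr12:104214403-104214451, motif 121 or 210 bases before the start (the table holds several starts): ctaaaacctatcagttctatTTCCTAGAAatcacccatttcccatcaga
Serpina3g, chr12:104236094-104236142, motif 33 bases before the start: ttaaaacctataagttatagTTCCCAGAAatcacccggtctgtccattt
CACGTG, the E-box that clock factors bind, was found in 0 of the 63 Serpin promoters and 7.15% of all promoters. Serpine2 held neither CACGTG nor TTATGNAA, the D-box, in this window, and the table holds no promoter of Serpina4-ps1.

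Some members varied together across mice, and how many did so depended on the scaling of the arrays. All 703 pairs of the 38 genes were compared as deviations from group means in the 16 mice, a description added after the values were seen, and 24 pairs had an adjusted permutation p under 0.05 for Pearson's r, 23 of them positive. With normexp 27 pairs did so, 21 of the 24 among them, but after quantile normalization 5 and in the authors' processed values 3, all of these among the 24. An absolute r of at least 0.752, the lowest of the 24, was found in 3.70% of the member pairs and in 0.786% of all pairs of the 20328 genes with a value on every array. After quantile normalization these shares were 1.85% and 0.758%.

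The antitrypsins show this dependence. All 10 pairs among Serpina1a to Serpina1e were among them, with r from 0.870 to 0.956 and rho from 0.847 to 0.938 (largest adjusted permutation p = 0.00192), and r was at least 0.904 without mice 1 and 25 and at least 0.858 without the 2 mice farthest from the median. After quantile normalization the same 10 pairs had r from −0.422 to 0.391, in the authors' processed values r from −0.543 to 0.461, and 0 of 10 had an adjusted permutation p under 0.05 in either. With log2 of the 75th percentile, which is subtracted from every value of an array, each of the 5 genes had r between −0.847 and −0.744, and with the mean of the 6 hepatocyte markers between 0.818 and 0.892. After quantile normalization these were −0.215 to 0.0938 and 0.0947 to 0.310. The part of the scaling in the antitrypsin pairs was not tested further, and quantile normalization by its construction leaves the brightest probes little room to differ. Antithrombin varied with 3 of them, at r = 0.880 with Serpina1e (rho 0.856, adjusted permutation p = 0.00552), 0.832 with Serpina1c and 0.831 with Serpina1a, and its probe shares no run of 20 bases with theirs. None of these 3 pairs had an adjusted permutation p under 0.05 after quantile normalization. There r was 0.745 with Serpina1e, which changed less, and 0.0505 and 0.0339 with Serpina1c and Serpina1a. Serpina3m was correlated with 4 antitrypsins by Pearson's r (0.752 to 0.817), which was lost by Spearman's rho (0.697 to 0.759, adjusted permutation p from 0.0693 to 0.134) and after quantile normalization (−0.439 to 0.251). Serpina3k was correlated with Serpina3h (r = 0.867, rho 0.882, adjusted permutation p = 0.00433) and Serpina3j (r = 0.774, rho 0.806), and with Serpina3m by Pearson's r (0.825) but not by rho (0.726, adjusted permutation p = 0.123). Of these 3 pairs, that with Serpina3h passed after quantile normalization (r = 0.867) and none did in the authors' processed values (r from 0.563 to 0.669).

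Over all 16 mice the closest pair was Serpina3f and Serpina3g (r = 0.961, rho 0.953, adjusted permutation p = 0.00176), whose probes share no run of 20 bases. Without mice 1 and 25 its r was 0.934, and pairs of antitrypsins were higher, such as Serpina1c with Serpina1e at 0.965. For Serpina3f with Serpina3g r lay between 0.955 and 0.967 with normexp, after quantile normalization and in the authors' values. With log2 of the 75th percentile r was −0.0667 for Serpina3f and 0.0220 for Serpina3g. Serpina4-ps1 and Serpine2, on chromosomes 12 and 1, had r = 0.791 (rho 0.791, adjusted permutation p = 0.00433, and r = 0.662 without mice 1 and 25), and 0.767 to 0.798 under the 3 other scalings. The negative pair was Serpine2 with Serpinf2, protease nexin 1 with α2-antiplasmin (r = −0.806, rho −0.841, adjusted permutation p = 0.0477), with −0.908 to −0.832 under the other scalings. The last 3 pairs named had an adjusted permutation p under 0.05 under each of the 4 scalings. They were read at the brightest probe of each gene, and the second probes of Serpina3f and Serpine2 were not set in pairs. Serpinb6a and Serpinb6c had r = 0.856 (adjusted permutation p = 0.0233), but rho of 0.668 (adjusted 0.123) and r of 0.494 without the 2 mice farthest from the median, and their probes share the run printed above.

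**Figure D5:**
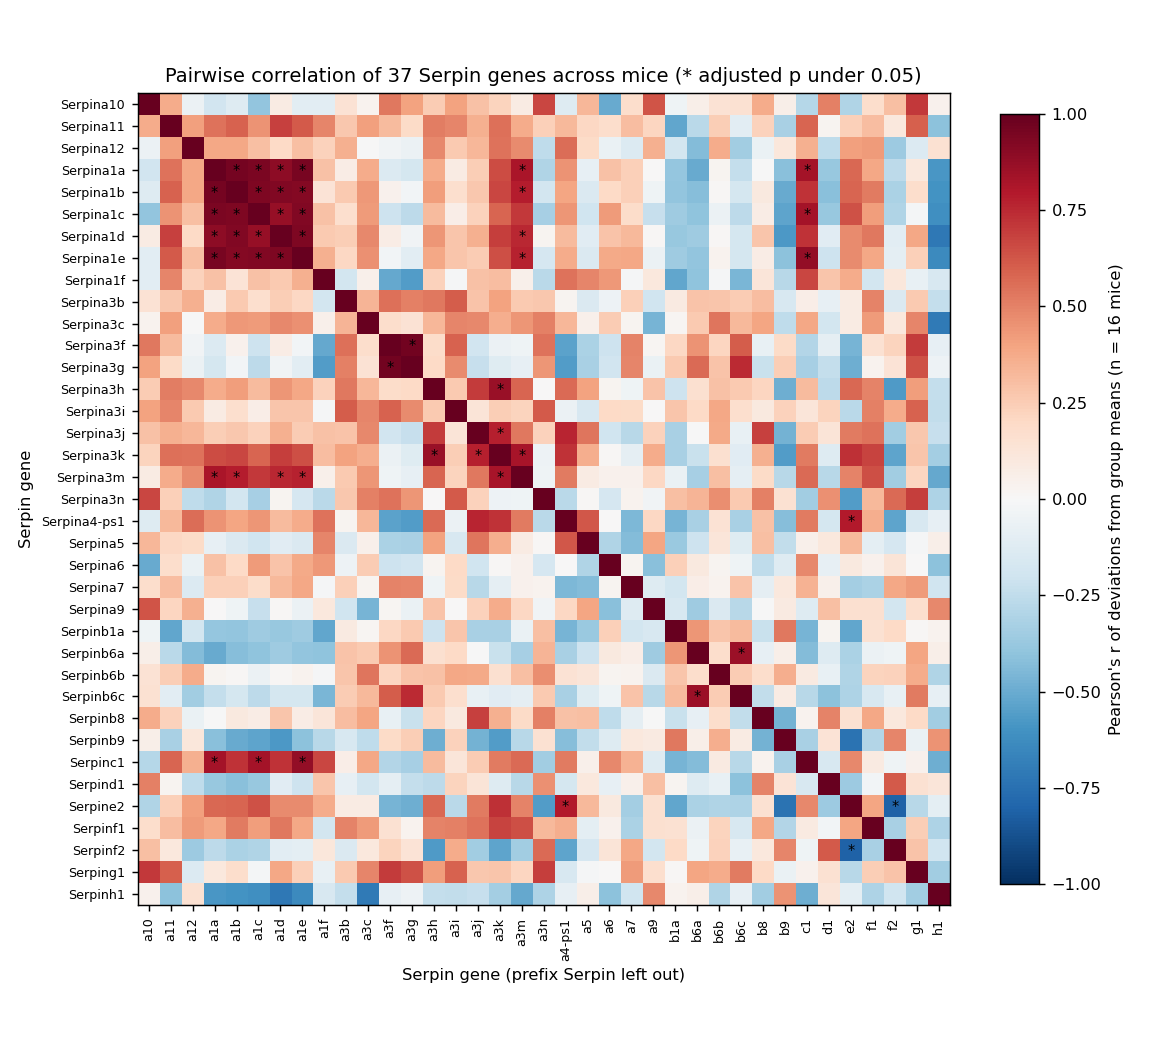
Pearson's r (colour, −1 to 1) between every pair of 37 tested Serpin genes (both axes), computed on deviations from group means in 16 mice, with an asterisk where the adjusted permutation p is under 0.05. A dark block joins Serpina1a to Serpina1e, with Serpinc1 and Serpina3m beside it, and Serpina3f with Serpina3g form a separate dark pair. After quantile normalization the block of the 5 is not there (r among the 5 from −0.422 to 0.391), while Serpinc1 with Serpina1e has r = 0.745.

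The proteases and partners of the serpins were examined as lists. Of 23 target proteases listed (factors of coagulation, plasminogen, complement and leukocyte proteases), 20 were tested. One passed an unadjusted limma p of 0.05 in OM(HFD) recipients against PBS mice, C1ra, a protease of the first complement component that the C1 inhibitor blocks. Its log2 intensity averaged 6.19 ± 0.09 (SD, n = 5) in the former and 5.92 ± 0.08 (SD, n = 6) in the latter, higher by 0.28 (limma p = 0.00864, adjusted p = 1, exact permutation p = 0.00649). Over all genes 3.25% reached that p in this comparison and 3.88% in LM recipients against PBS mice, and the counts in these lists are near those shares. None of the 20 did so in LM recipients. Of 7 partners (receptors, cofactors and the export receptor Lman1) 0 passed in either comparison. Among 18 tested inhibitors of other families, Tfpi, the tissue factor pathway inhibitor, was lower in OM(HFD) recipients (−0.35, limma p = 0.0248, exact permutation p = 0.0476) and Itih2, a heavy chain of inter-α-inhibitor, higher in LM recipients (0.27, limma p = 0.0265, exact permutation p = 0.0411). None of these passed after adjustment over all genes.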

How the data were processed

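The authors labelled liver RNA with Cy3, hybridized it to Agilent SurePrint G3 mouse arrays and extracted them with Agilent Feature Extraction 10.10.1.1. The deposited intensity values are linear and background-subtracted within each array. The authors' deposited log2 table matched the log2 of median spot intensity after quantile normalization, with column medians of 5.49 to 5.52, and served as an alternative. All its columns matched a mouse. Positions are those of the array design on mm9, and no annotation of that build was used here. Promoters came from RefSeq (GRCm38.p6).

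Control and flagged spots were left out, spots of a probe averaged, log2 taken and the 75th percentile of the array subtracted. Probes well above background on at least 5 arrays were kept, with the brightest for each gene. All 3 groups entered 1 fit with limma 3.58.1 (lmFit and eBayes) in R 4.3.3, with Benjamini-Hochberg adjustment over 20404 genes. Exact two-sided permutation tests over mice cannot go below 0.00216 (5 against 6) or 0.00794 (5 against 5). Relations used numpy 2.4.6. The fit was tested on simulated data. The number of mice limits the precision.

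Genes named were those at an unadjusted p under 0.05, the 10 most variable on all arrays, the brightest of each clade, known liver serpins, and list genes at an unadjusted p under 0.05. A member and a list gene are not reported here. The members and lists were chosen with earlier results of these data known. Alternatives were normexp background correction (offset 50), quantile normalization, the authors' values, no filter on dim probes, all-array detection, the slide as a block, fitting only the mice of the pair compared, weights for arrays, averaging a gene's probes, every probe, the methods' t-test and leaving out each mouse. Leaving out mice 1 and 25 together (for the marker lists also each alone), a relation without each mouse, the other scalings of the list relations and of the pairs, and the further family of 5 members were added after the data were seen.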

Additional observations from a re-analysis of the deposited data

Results flagged for a closer look

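In 7 of 114 sets of values (38 genes in 3 groups), the highest or lowest mouse of a group lay far from the others of that group, and 6 of these are given here. Chance gives about 1 in 20, which is 5.70 of 114. For Serpina4-ps1, PBS mouse 1 was at 0.24 on the log2 scale, below the 2.70 to 3.72 of the others, and the same mouse was at 3.74 for Serpina3g, above 1.08 to 1.86. OM(HFD) recipient 25 was at 3.47 for Serpina10 (others 2.59 to 2.84). PBS mouse 4 was at 1.05 for Serpina9 (others −1.35 to −0.95). OM(HFD) recipient 30 was at 5.44 for Serpina3c (others 4.61 to 4.83), and OM(HFD) recipient 26 at 1.74 for Serpinb6c (others 1.99 to 2.05). For no tested Serpin gene did all OM(HFD) recipients lie on one side of the mean of PBS mice and all LM recipients on the other.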

How the results depend on the processing

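The number of Serpin genes at an unadjusted p under 0.05 in OM(HFD) recipients against PBS mice was 1, and 0 with normexp, without the filter on dim probes, with array weights, with every probe on its own and without mice 1 and 25 together. In LM recipients against PBS mice it was 1, and 0 without the filter, with only the groups compared, by the methods' t-test and without mice 1 and 25, and 2 with array weights (Serpina7 at 0.77 and Serpinb1a at −0.59, in place of Serpinb6c). Leaving out each mouse in turn gave 0 to 2, 0 to 3 and, between OM(HFD) and LM recipients, 0 to 1. At an adjusted p it gave 0 to 0. Without the filter 64 genes entered and 11 lay in the top 10% of SD, 7 otherwise and 5 to 9 leaving out each mouse. Serpina4-ps1 was the most variable member under all settings run but that one, in which it was Serpinb2, a gene above background on 1 array. Of the 15 list relations, 5 had an adjusted p under 0.05 for Pearson's r, and 0 to 5 leaving out each mouse (2 without mouse 1, 2 without mouse 4, 0 without mouse 25). Of 3183 recomputed fold changes of single genes, 191 had the opposite sign, 11 newly had a p under 0.05 and 32 no longer had. No paired analysis was possible because no mouse number occurs in more than 1 group. The causes of these changes were not tested. Depth in the sense of reads does not apply, and 26 of the 64 genes were too near background to be compared.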

Other observations

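The next 5 members by SD (Serpina3g, Serpine2, Serpina7, Serpinb1a and Serpinb6b) were set against the same 3 lists as a further family of 15 relations, chosen after the data were seen. At its brightest probe Serpine2 varied with the clock list (r = 0.732, permutation p = 0.00414, adjusted 0.0210, and rho = 0.741, permutation p = 0.00385, adjusted 0.0461), with r of 0.664 and 0.907 within slides 1 and 2, 0.810 without the 2 mice farthest from the median of the list, and 0.623 without mice 1 and 25 (permutation p = 0.0347, adjusted 0.397). The relation of its second probe, on which the order of the mice differed, was not tested. Serpina3g had r = 0.612 with the acute phase list (permutation p = 0.00421, adjusted 0.0210, and rho = 0.524, permutation p = 0.0233, adjusted 0.116), within slides 0.921 and 0.820, and 0.272 without mice 1 and 25, on which it rests. Without mice 1 and 25, 0 of these 15 relations had an adjusted p under 0.05.

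In OM(HFD) recipients against PBS mice, 17 of the 18 acute phase genes had a higher mean (median log2 fold change 0.22). Without mouse 25 this was 9 of 18 (0.02), and without mice 1 and 25 it was 15 of 18 (0.14). Leukocytes also make some of these proteins, Lcn2, Saa3 and Il1rn among them. Of the 6 neutrophil markers 5 had a higher mean (0.18), which was 6 of 6 without mouse 1 (0.94), 1 of 6 without mouse 25 (−0.45) and 4 of 6 without both mice (0.14), and their part in the acute phase values was not tested. Over all genes 49.3% had a higher mean. All 6 hepatocyte markers had a higher mean (0.09), also without mice 1 and 25 (0.08). All 6 Kupffer cell markers had a lower mean (−0.15), but 5 of 6 a higher one without mouse 1 (0.19), and 5 of 6 a lower one without mice 1 and 25 (−0.03). At an unadjusted limma p under 0.05, which 3.25% of all genes reached, 3 of 5 stellate cell markers were lower (Lrat by −0.63, Colec11 by −0.27 and Dcn by −0.26), as were 1 of 5 endothelial markers (Clec4g by −0.48) and 1 of 3 T or NK cell markers (Klrb1c by −0.53). At any p, 4 of the 5 stellate markers had a lower mean and 1 a higher one (Des by 0.54). Of the endothelial markers 3 had a lower mean and 2 a higher one, and all 3 T or NK cell markers had a lower one. The median of the stellate markers was −0.27 with and without mice 1 and 25.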
